A study of Homo sapiens with 6 samples.

Results

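The miR-378 and miR-422a family was followed through small RNA libraries of A549 cells, an established line of human lung adenocarcinoma origin. Its 6 members, hsa-miR-378a-3p, hsa-miR-378a-5p, hsa-miR-378c, hsa-miR-378d, hsa-miR-378i and hsa-miR-422a (written without the species prefix from here on), were taken by name from the 2588 mature miRNAs of the deposited table, and all 6 were among the 607 miRNAs that could be tested. Parental cells (Ctrl, 3 libraries) were compared with cells in which the *MIR21* locus had been removed by CRISPR/Cas9 (*MIR21*-KO, 3 libraries). Cells of both groups were grown in DMEM with fetal bovine serum and harvested 48 h after seeding, with no further treatment. According to the methods of the study, knockout cells were obtained by sorting single cells after transfection with Cas9 and a pair of guide RNAs, so a *MIR21*-KO culture descends from a sorted clone whereas Ctrl cells do not. The labels number the libraries of a group but do not say whether they came from separate cultures, and p-values then measure only the spread between these libraries.

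A miRNA is cut from a hairpin precursor, and either arm of the hairpin can give rise to a mature strand, named 5p or 3p. The strand that is loaded into an Argonaute protein pairs with target mRNAs mainly through its seed, bases 2 to 8 from the 5′ end. miR-378a comes from an intron of *PPARGC1B*, the gene of the transcriptional coactivator PGC-1β, which drives mitochondrial and lipid metabolism, and miR-378a is best known from muscle, liver and fat tissue, where it acts in energy metabolism. miR-422a and the other miR-378 miRNAs arise from separate hairpins that resemble the 3p arm of miR-378a.

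The mature sequences, from RefSeq on GRCh38.p14, matched 5 of the 6 members by name, all but miR-378d. They are shown because the 3p members among them differ from each other at very few bases. The seed is in capitals, and the sequences run 5′ to 3′.
miR-378a-3p: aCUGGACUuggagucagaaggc
miR-378c: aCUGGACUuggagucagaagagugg
miR-378i: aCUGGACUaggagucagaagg
miR-422a: aCUGGACUuagggucagaaggc
miR-378a-5p: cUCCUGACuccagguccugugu
The 3p members shown share the seed CUGGACU, which 7 of the 2370 mature miRNA names in the reference carry, 4 of them members and the other 3 being miR-378b, miR-378f and miR-378h. miR-378d, and miR-378e among the other miR-378 names, had no sequence in this reference. Neither could enter the count, which says nothing of their seeds. The seed of miR-378a-5p, UCCUGAC, was carried by no other name. With positions counted from 1 at the 5′ end and miR-378a-3p given first, miR-378i differed by U9A and was a base shorter, at 21 bases against 22. miR-422a differed by G10A and A12G and had the same length. miR-378c was identical to miR-378a-3p over the first 20 bases and then differed by G21A and C22G, with a total length of 25 bases. A read of miR-378c that has lost its 3′ end can therefore read the same as a shortened miR-378a-3p, and how the counting assigned such reads is not given in the sources used here.

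The hairpins are scattered over the genome (GENCODE 29 on GRCh38). *MIR378A* lies at chr5:149732825-149732890 on the plus strand, in an intron of *PPARGC1B* and in the same orientation. *MIR378C* (chr10:130962588-130962668, minus strand) and *MIR422A* (chr15:63870930-63871019, minus strand) are not contained in any other annotated gene. miR-378d has 2 loci. *MIR378D1* (chr4:5923275-5923328, minus strand) lies in an intron of *C4orf50*, and *MIR378D2* (chr8:93916022-93916119, minus strand) lies in an exon of a lincRNA and within an intron of *PDP1*, which is transcribed from the opposite strand. *MIR378I* (chr22:41923222-41923297, minus strand) lies inside the untranslated part of an exon of *TNFRSF13C*, the gene of the BAFF receptor of B cells.

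Libraries held 5577287 to 9768152 miRNA reads. miR-21-5p made up 65.5% to 69.4% of the reads in Ctrl and 0.0156% to 0.0254% in *MIR21*-KO. Values are the deposited TMM-scaled CPM, in which reads are divided by a library size that was adjusted so that most miRNAs stand at a common level, and a read spans a mature miRNA, so no scaling to length was made. The libraries also differed in a way that the labels do not give. The first principal component of the 601 tested miRNAs other than the members (64.0% of the variance) divided them into a set A, made of *MIR21*-KO replicate 3 with the Ctrl libraries 1 and 2, and a set B, made of Ctrl replicate 3 with the *MIR21*-KO libraries 1 and 2. Values within each set are given beside the results below. What the sets stand for is not stated, and each set holds a single library of one of the conditions.

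miR-378a-3p was by far the most abundant member. Its values were 2021, 2545 and 772 in Ctrl replicates 1, 2 and 3, and 831, 979 and 1399 in *MIR21*-KO replicates 1, 2 and 3. The groups overlapped, since Ctrl replicate 3 lay below every *MIR21*-KO library. By its mean it took place 40 among all miRNAs in Ctrl (1779 ± 911, SD, n = 3) and place 63 in *MIR21*-KO (1070 ± 295, SD, n = 3). It rested on 5468 to 9415 reads in Ctrl and on 10761 to 13569 in *MIR21*-KO, so that counting error was small beside the spread between libraries. The log2 fold change on log2(value + 1) was -0.60 (standard error 0.55, 95% interval from -1.87 to 0.67, limma, Benjamini-Hochberg adjusted p = 0.719). The spread followed the library sets, with 1399 to 2545 in set A and 772 to 979 in set B. Within set A the *MIR21*-KO library lay 0.70 below the Ctrl mean (log2 difference -0.70), and within set B the *MIR21*-KO libraries differed from Ctrl by 0.22 in the other direction. Without Ctrl replicate 3 the log2 fold change was -1.12 (limma, adjusted p = 0.161), and without Ctrl replicate 2 it was -0.26.

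miR-378a-5p, the partner strand from the same hairpin, was scarce. Its values were 5.34, 10.3 and 21.3 in Ctrl replicates 1, 2 and 3, on 20, 38 and 151 reads. In *MIR21*-KO replicates 1, 2 and 3 they were 9.08, 6.27 and 2.21, on 126, 87 and 17 reads. The groups overlapped, with Ctrl replicate 3 the highest and *MIR21*-KO replicate 3 the lowest of the 6 libraries. The log2 fold change was -0.92 (standard error 0.63, 95% interval from -2.39 to 0.55, limma, adjusted p = 0.654). With pseudocounts of 0.1 and 10 in place of 1, the log2 fold change was -1.05 and -0.45. On log2(value + 1), the difference was nearly equal within the sets, at -1.40 in set A and -1.38 in set B. Each set holds a single library of one of the conditions, and these within-set differences were not computed with other pseudocounts. With a term for the library set in the limma fit, the difference was -1.39 on the log2 scale with a standard error of 0.33 (adjusted p = 0.00996), and miR-378a-5p was then the only member past the threshold of 0.05, in a fit that called 6.43% of the 607 miRNAs lower and 11.7% higher. The quasi-likelihood test of edgeR with the same term, on the reads recovered from the values, gave -1.64 (adjusted p = 0.00564, with 6.26% of miRNAs called lower and 8.9% higher). The sets were read from other miRNAs of the same libraries, and the p-values with this term are not independent of them. The call with limma and the set term was lost when Ctrl replicate 3 (adjusted p = 0.0928) or either of the *MIR21*-KO replicates 2 (0.0524) and 3 (0.138) was left out, while the log2 fold change stayed between -1.57 and -1.21 over the 6 fits that each left out a library.

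**Figure D1:**
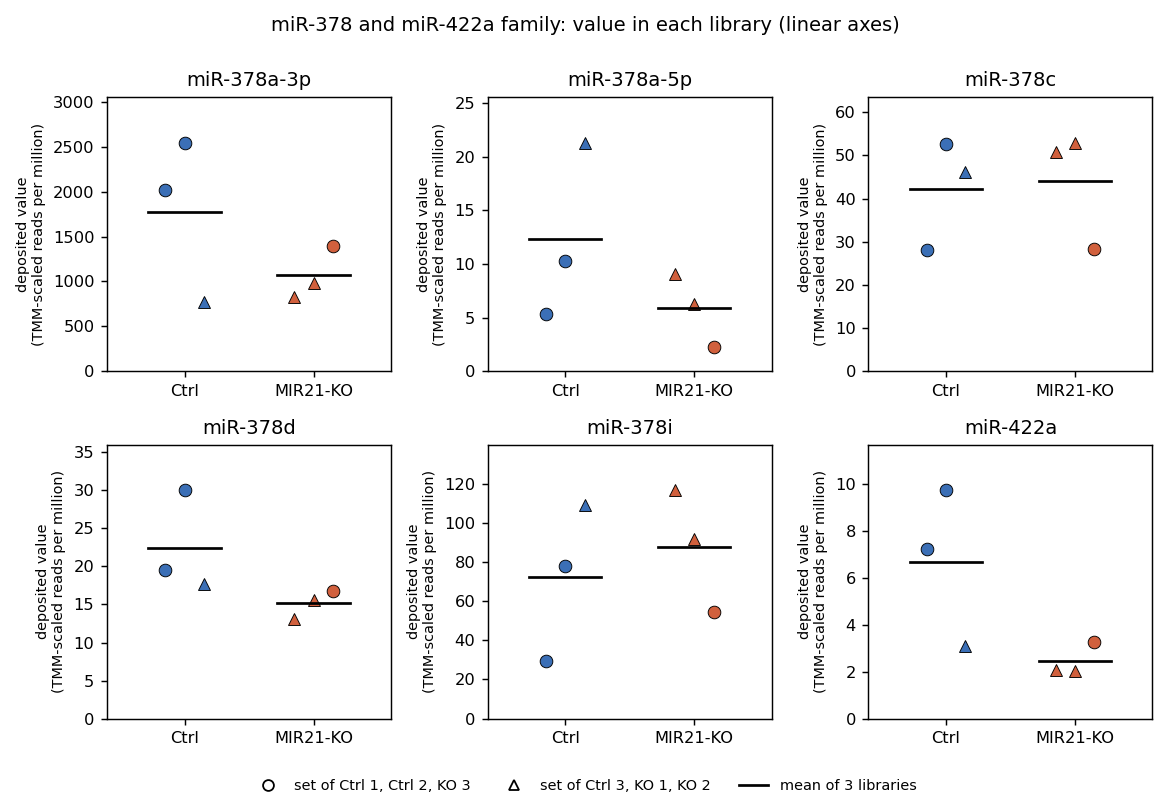
Deposited value (TMM-scaled CPM, linear axes from 0) of each member in each library, for Ctrl (blue) and MIR21-KO (orange, KO in the legend). Circles are libraries of set A, triangles are libraries of set B and lines are means of 3 libraries. miR-378a-3p and miR-422a are higher in circles than in triangles, miR-378i is higher in triangles, and in miR-378d all MIR21-KO libraries lie below all Ctrl libraries.

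Of the 2 arms of the hairpin, the 3p strand dominated in every library. miR-378a-5p made up 0.264%, 0.402% and 2.69% of the miR-378a reads in Ctrl replicates 1, 2 and 3, and the 95% Wilson interval of the last (2.3% to 3.14%) lay clear of those of the first (0.171% to 0.407%) and the second (0.293% to 0.551%). In *MIR21*-KO replicates 1, 2 and 3 the share was 1.08% (0.908% to 1.28%), 0.637% (0.517% to 0.785%) and 0.158% (0.0985% to 0.252%). The libraries thus differed by more than counting error, which is all that these intervals cover, and reads were not identified by molecule. The mean was 1.12% ± 1.36 in Ctrl and 0.625% ± 0.461 in *MIR21*-KO (SD, n = 3), and the groups overlapped (two-sided exact permutation test, p = 0.8). Within each set the *MIR21*-KO libraries lay below the Ctrl libraries, at 0.158% against 0.264% and 0.402% in set A, and at 1.08% and 0.637% against 2.69% in set B. Without Ctrl replicate 3 the difference of the group means turned from -0.493 to 0.292 percentage points.

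miR-378i, which differs from miR-378a-3p by a single base inside the mature sequence, was the most abundant of the relatives. It stood at 29.6, 78.1 and 109 in Ctrl replicates 1, 2 and 3, and at 117, 91.5 and 54.5 in *MIR21*-KO replicates 1, 2 and 3. Its level went with the sets in the reverse sense to that of miR-378a-3p, with 29.6 to 78.1 in set A and 91.5 to 117 in set B. The log2 fold change was 0.39 (standard error 0.61, 95% interval from -1.03 to 1.81, limma, adjusted p = 0.795), 0.17 within set A and -0.08 within set B. Without Ctrl replicate 1 it was -0.14.

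miR-378c followed in the order of abundance. Its values of 28, 52.7 and 46.1 in Ctrl replicates 1, 2 and 3 and of 50.8, 52.9 and 28.3 in *MIR21*-KO replicates 1, 2 and 3 covered nearly the same range. The log2 fold change was 0.05 (standard error 0.48, 95% interval from -1.08 to 1.18, limma, adjusted p = 0.960). This interval includes a log2 change of 1 in either direction, so a change of that size is not excluded by these libraries. The difference was -0.43 within set A and 0.16 within set B.

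miR-378d was summed over its 2 table rows, which held 45 to 102 and 28 to 114 reads per library. The sum was 19.5, 30.0 and 17.6 in Ctrl replicates 1, 2 and 3, and 13.1, 15.6 and 16.8 in *MIR21*-KO replicates 1, 2 and 3. Every knockout value was thus lower than the lowest Ctrl value, which held for 6.59% of the 607 miRNAs (with the reverse for 9.56%), and miR-378d was the single member of which this held on the deposited scale. The gap between the lowest Ctrl and the highest *MIR21*-KO library was small beside the spread within the groups. The log2 fold change was -0.50 (standard error 0.42, 95% interval from -1.48 to 0.47, limma, adjusted p = 0.714), with -0.50 within set A and -0.29 within set B.

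miR-422a was the scarcest member in both conditions by mean value, on 22 to 36 reads in Ctrl and 25 to 29 in *MIR21*-KO. Its values were 7.21, 9.73 and 3.10 in Ctrl replicates 1, 2 and 3, and 2.09, 2.02 and 3.25 in *MIR21*-KO replicates 1, 2 and 3. The groups overlapped on this scale only because Ctrl replicate 3 lay just below *MIR21*-KO replicate 3. Per 1000000 reads other than those of miR-21, the groups were separate, at 11.4, 18.5 and 7.42 for the Ctrl replicates against 3.35, 3.87 and 4.48 for the knockout replicates, a pattern that 11.2% of the 607 miRNAs showed in this direction and 3.79% in the other. The Wilson intervals of Ctrl replicate 3 (4.90 to 11.2) and *MIR21*-KO replicate 3 (3.04 to 6.62) overlapped, so counting error alone could reorder these libraries. The log2 fold change was -1.06 (standard error 0.46, 95% interval from -2.13 to 0.00, limma, unadjusted p = 0.0507 and adjusted p = 0.434), the lowest of the family. It was -1.14 within set A and -0.43 within set B. With pseudocounts of 0.1 and 10 in place of 1 the value was -1.30 and -0.40, and with DESeq2, which uses the reads, it was -1.68 (adjusted p = 0.184).

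**Figure D2:**
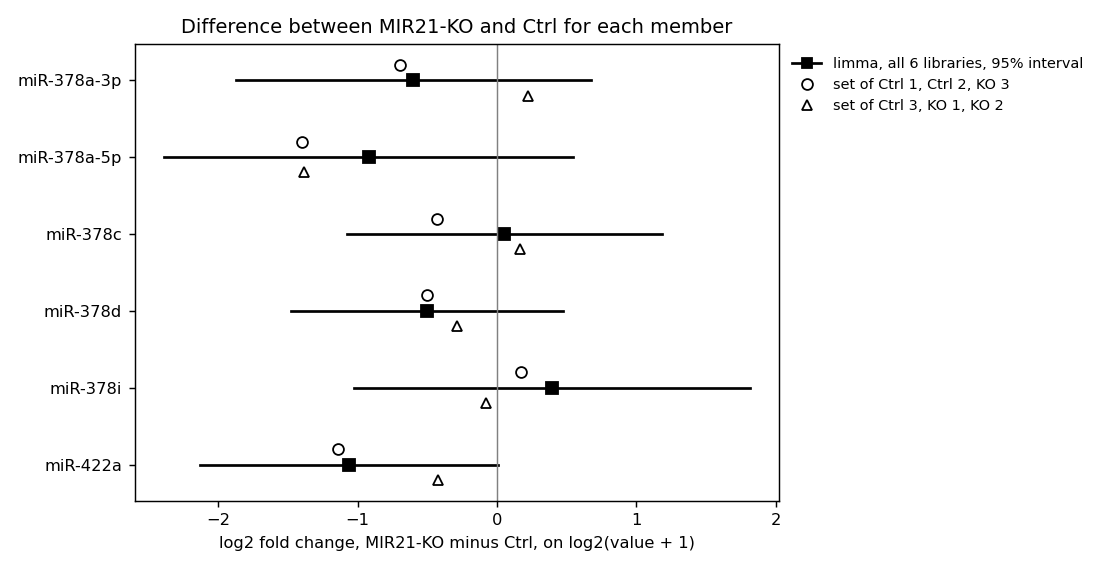
Log2 fold change of each member on log2(value + 1), MIR21-KO minus Ctrl, from limma over all 6 libraries (squares, lines are 95% intervals), with the difference within set A (circles) and within set B (triangles). All 6 intervals include 0, and the differences within the sets lie close together for miR-378a-5p (-1.40 and -1.38). They lie on opposite sides of 0 for miR-378a-3p (-0.70 and 0.22), miR-378c (-0.43 and 0.16) and miR-378i (0.17 and -0.08).

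The order of the members within a library was the same for most pairs. miR-378a-3p lay above every other member in 6 of 6 libraries, miR-378i above miR-378c in 6 of 6, and miR-378c above miR-378d in 6 of 6. miR-378a-5p lay above miR-378d in 1 library, Ctrl replicate 3, and above miR-422a in 4 of 6, so the order of miR-378a-5p and miR-422a was not settled.

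No member was called between the conditions at an adjusted p under 0.05 with limma, where 0.824% of the 607 miRNAs were called, all of them lower. In the same limma fit, the count of members under the threshold of 0.05 before adjustment was 0, while 11.2% of all miRNAs were under it (6.75% higher and 4.45% lower). Without the set term, edgeR and DESeq2 called 0 members as well, where they called 1.15% and 3.83% of the miRNAs. Of the members, miR-422a came closest, with an adjusted p of 0.449 from edgeR and 0.184 from DESeq2 (0.0323 and 0.0116 before adjustment). The log2 fold change was below 0 for 4 members (miR-378a-3p, miR-378a-5p, miR-378d and miR-422a) and above 0 for miR-378c and miR-378i. Over all 607 miRNAs, 38.2% were below 0. The median over the members was -0.55, beside 0.24 over all miRNAs tested. When values were instead expressed per library total, miR-21 included, all 6 members had a log2 fold change above 0, the median over all miRNAs rose to 1.34, and 32.3% of all miRNAs were called higher and 1.15% lower, in place of 0% and 0.824%. Relative to the median of all miRNAs, the median of the members lay lower by that scaling too (difference of -0.54, and of -0.79 on the deposited scale). The members were chosen with earlier results of these data known and share sequence and possibly reads, so they are not independent of each other.

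Shares and ratios within a library do not depend on the factor by which the library was scaled. Summed over the 6 members, the family made up 0.334%, 0.518% and 0.231% of the reads other than miR-21 in Ctrl replicates 1, 2 and 3, and 0.164%, 0.220% and 0.207% in *MIR21*-KO replicates 1, 2 and 3. Every *MIR21*-KO library lay below every Ctrl library (0.361% ± 0.145 in Ctrl and 0.197% ± 0.0294 in *MIR21*-KO, SD, n = 3). As single miRNAs, 11.2% of those tested showed this on the same scale, miR-378d and miR-422a among them. It did not hold for miR-378a-3p, which gave most of the family reads. Its share was 0.184% in Ctrl replicate 3, below 0.187% and 0.193% in *MIR21*-KO replicates 2 and 3. For the family share, the margin between Ctrl replicate 3 (Wilson interval from 0.226% to 0.237%) and *MIR21*-KO replicate 2 (0.216% to 0.223%) was narrow. The difference of its means of -0.164 percentage points became -0.0856 without Ctrl replicate 2. The sums of deposited values, by contrast, overlapped, since Ctrl replicate 3 (969) lay below the knockout libraries (1023, 1147 and 1504) and Ctrl replicates 1 and 2 (2111 and 2726) lay above them.

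**Figure D3:**
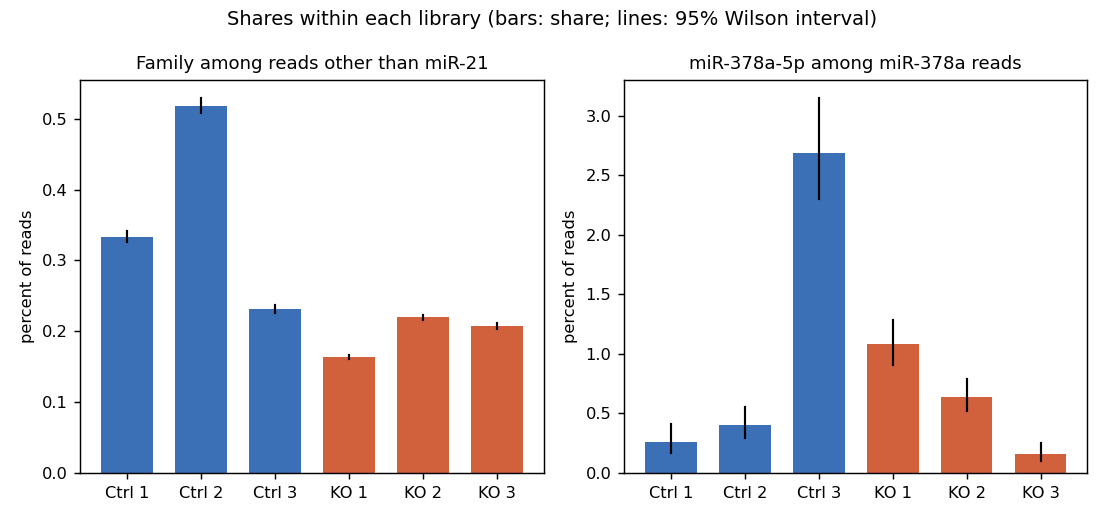
Share of the family in all miRNA reads other than miR-21 (left) and share of miR-378a-5p in the reads of both miR-378a strands (right), in percent for each library, Ctrl in blue and MIR21-KO (KO) in orange. Lines are 95% Wilson intervals for counting error. The family share lies lower in all 3 MIR21-KO libraries (0.164% to 0.220%) than in the Ctrl libraries (0.231% to 0.518%), and the 5p share is highest in Ctrl 3 (2.69%).

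Set against miR-378a-3p of the same library, the relatives fell into 2 kinds of pattern. miR-378i stood at 1.47%, 3.07% and 14.1% of miR-378a-3p in Ctrl replicates 1, 2 and 3, and at 14.0%, 9.35% and 3.89% in *MIR21*-KO replicates 1, 2 and 3. All libraries of set B thus lay above all libraries of set A, in both conditions. The same was seen for miR-378c, with 1.39% to 2.07% in set A and 5.41% to 6.11% in set B. For miR-378d the range was narrower, from 0.965% to 2.29%, again with set B above set A. The relatives (miR-378c, miR-378d, miR-378i and miR-422a) together made up 9.62% ± 7.83 of the 3p reads of the family in Ctrl and 13.0% ± 5.68 in *MIR21*-KO (SD, n = 3), and the groups overlapped. Over single miRNAs, 22.1% of the 607 had all set A values above all set B values, as did miR-378a-3p and miR-422a, and 35.1% had the reverse, as did miR-378i. The sets were found from such differences, so these counts are a description.

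The ratio of miR-422a to miR-378a-3p did not follow the sets. It was 0.357%, 0.382% and 0.402% in Ctrl replicates 1, 2 and 3, and 0.251%, 0.206% and 0.232% in *MIR21*-KO replicates 1, 2 and 3. The groups did not overlap (log2 ratio lower by 0.73 in *MIR21*-KO, difference -0.73, p = 0.1 by the two-sided exact permutation test, where 3 libraries against 3 allow no smaller value). The same order within each set follows from this and is not a separate result. Of the 568 other miRNAs with reads in every library, 3.17% had a ratio to miR-378a-3p that was lower in all *MIR21*-KO libraries than in any Ctrl library, and 13.2% had the reverse. miR-422a was singled out among 5 ratios, of which the other 4 gave p from 0.5 to 0.9 by the same test. Of the summed reads of both miRNAs, the miR-422a share was 0.379% ± 0.0226 in Ctrl and 0.229% ± 0.0225 in *MIR21*-KO (SD, n = 3), while the Wilson interval of a single library was wider than this spread (0.265% to 0.606% in Ctrl replicate 3).

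**Figure D4:**
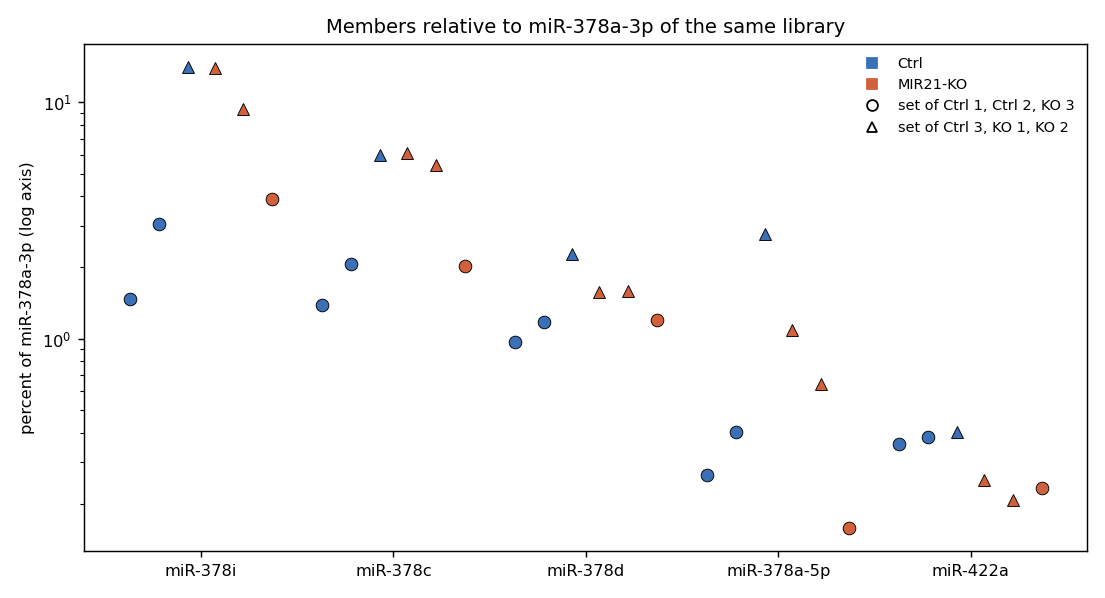
Value of each member as a percentage of miR-378a-3p in the same library (log axis), for Ctrl (blue) and MIR21-KO (orange, KO in the legend), with circles for libraries of set A and triangles for set B. For miR-378i and miR-378c the triangles of both conditions lie above the circles (miR-378i 9.35% to 14.1% against 1.47% to 3.89%), whereas for miR-422a the Ctrl libraries (0.357% to 0.402%) lie above the MIR21-KO libraries (0.206% to 0.251%).

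Of the other miRNAs named miR-378, 6 names were listed in the table and miR-378f alone passed the filter. miR-378f shares the seed of the 3p members and differs from miR-378a-3p by U14C over its 20 bases. Its values were 4.01, 2.43 and 0.423 in Ctrl replicates 1, 2 and 3, on 15, 9 and 3 reads, and 0.720, 0.793 and 1.04 in *MIR21*-KO replicates 1, 2 and 3, on 10, 11 and 8 reads. The groups overlapped (log2 fold change -0.65, limma, adjusted p = 0.671). miR-378e had 2 to 6 reads per library and miR-378g had 2 to 7. miR-378h had at most 3 reads, miR-378b at most 2 and miR-378j 0 in every library. An observed count of 0 still allows an expected count of up to 3 reads in a library at this depth.

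miRNAs that like miR-378a lie in introns of genes of metabolism were described for comparison. miR-33a and miR-33b, from introns of the sterol regulators *SREBF2* and *SREBF1*, act on cholesterol transport, and miR-103a and miR-107 come from introns of pantothenate kinase genes of coenzyme A synthesis. Of 6 names listed, 5 were tested and 0 were called in either direction (0 also at an unadjusted p under 0.05). Their median log2 fold change was 0.27, with a range from -0.76 for miR-33b-3p to 1.31 for miR-107. miR-107 moved with the sets as miR-378i did, at 19.5, 21.9 and 36.5 in set A and 251, 221 and 217 in set B (Ctrl replicate 3, then *MIR21*-KO replicates 1 and 2). Of 14 miRNAs known from muscle and brown fat, where miR-378a is prominent, 11 were tested, and 0 were called or had an unadjusted p under 0.05. 10 of these 11 had a log2 fold change above 0 and miR-455-5p stood at -0.03, while 38.2% of all 607 miRNAs were below 0. The median of these 11 was 0.59, against -0.55 for the miR-378 and miR-422a members and 0.24 for all miRNAs tested. However, miR-30b-5p, miR-30c-5p, miR-365a-3p, miR-196a-5p, miR-193b-3p and miR-455-5p were higher in every library of set B than in any of set A. That held for 35.1% of the 607 miRNAs and for no other tested miRNA of this list. Set B holds *MIR21*-KO replicates 1 and 2, and how far the sets account for the median of this list was not tested. The muscle miRNAs miR-133a-3p, miR-133b and miR-206 were too scarce to be tested, at no more than 1.89 in any library.

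By Pearson correlation of log2(value + 1) over the 6 libraries, miR-550a-5p (r = 0.98), miR-4664-3p (0.96), miR-451a (0.96), miR-122-5p (0.96) and miR-3118 (0.95) were the most similar to miR-378a-3p among 328 other miRNAs whose mean was 10 or more. These coefficients describe libraries that fall into the sets named above and that share a scaling, and no test was made. miR-122-5p, the main miRNA of hepatocytes, stood at 96.7, 141 and 51.9 in set A (Ctrl 1, Ctrl 2, then *MIR21*-KO replicate 3) and at 7.90, 16.2 and 8.58 in set B. miR-451a, a miRNA of red blood cells, was likewise higher in every library of set A (8.97 to 41.6) than in set B (1.69 to 4.61). Whether these miRNAs had a part in the pattern of miR-378a-3p was not tested.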

How the data were processed

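The authors deposited a table of 2813 rows with a signal per mature miRNA and library, which is the reads of the row divided by a TMM-scaled library size. The deposited table also gives a log2 fold change, a p-value and an FDR per row from a comparison by the authors, and none of these was used. The processing notes of the submitters name cutadapt 1.14, Bowtie2 2.3.2, SAMtools 1.5, featureCounts 1.5.3, edgeR 3.18.1 and hg38, without the role of each. Libraries were made and sequenced by Novogene. How multi-mapping reads were counted is not given in the sources used here.

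In each library 100.0% of the nonzero values were multiples of the value of 1 read (tolerance 1e-06), which gave the reads back. On these, edgeR called 7 miRNAs, all lower. Rows of the same name were summed. limma 3.58.1 (R 4.3.3, lmFit and eBayes with trend, condition as the only term) was run on log2(value + 1) for 607 miRNAs, those that reached 1 in 3 or more libraries, with Benjamini-Hochberg adjustment over all of them. Single shares and ratios were tested by exact permutation of libraries (two-sided). No pair of replicates was so alike as to be a library deposited in duplicate (chi-square per degree of freedom of at least 176).

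Alternatives were other pseudocounts, filters, 4 scalings, edgeR 4.0.16, DESeq2 1.42.0, a replicate block, a library set term, averaged rows, ratios to miR-378a-3p and each library left out. edgeR with the set term, and leaving out libraries under that term, were added after the values were seen. The members, lists and rules were chosen with earlier results of these data known. The miRNAs named are the 6 members, the lists above, other names with the seed of a member, and the 5 most similar to miR-378a-3p. Tables were handled in Python 3.11.15 with pandas 2.3.3 and numpy 2.4.6, tests were run with scipy 1.17.1, and plots were drawn with matplotlib 3.10.9.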

Additional observations from a re-analysis of the deposited data

How the results depend on the processing

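The number of members lower in *MIR21*-KO was 0, and 1 (miR-378a-5p) with a library set term in limma and 1 in edgeR with this term, and the number higher was 0 under every alternative run. Scaled to library totals with miR-21 included, of which miR-21-5p is most in Ctrl, the log2 fold change turned to 0.78 for miR-378a-3p, 0.28 for miR-378a-5p, 0.81 for miR-378d and 0.028 for miR-422a, and over all miRNAs 196 were called higher and 7 lower, against 0 and 5. The value of miR-378c, close to 0, turned to -0.20 with the total without miR-21, -0.19 with median-of-ratios factors, -0.24 with median centring, -0.20 with DESeq2, -0.13 when limma had a set term and -0.20 when edgeR did. miR-378i turned to -0.067 with edgeR and the set term, and miR-378d to 0.071 as a ratio to miR-378a-3p. The cause of these turns was not tested.

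Over the fits that each left out a library, the log2 fold change ran from -1.12 to -0.26 for miR-378a-3p, from -1.36 to -0.45 for miR-378a-5p, from -0.21 to 0.34 for miR-378c (below 0 when Ctrl 1, *MIR21*-KO 1 or *MIR21*-KO 2 was the library left out), from -0.65 to -0.28 for miR-378d, from -0.14 to 0.78 for miR-378i and from -1.46 to -0.77 for miR-422a. The difference in percentage points ran from -0.229 to -0.0856 for the family share, from -0.920 to 0.292 for the 5p share and from 0.604 to 7.88 for the share of the relatives. miR-378a-5p and miR-422a have a mean value under 10 and were not tested with that filter.

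Libraries of the same replicate number deviated in opposite directions (correlations from -0.878 to -0.604), so the numbers do not pair them. With a replicate block 2 of the 607 miRNAs were called, none of them a member, and the log2 fold change of miR-422a was -1.06 (adjusted p = 0.95 from limma). Counting error is larger for scarce members, and miR-422a had at most 36 reads in a library. Its limma standard error was 0.46, while those of the members ran from 0.42 (miR-378d) to 0.63 (miR-378a-5p), with 0.55 for the abundant miR-378a-3p.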
